A study of Mus musculus with 18 samples.

Results

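The chromatin contacts of the Slc25a37 promoter were examined over the 700 kb around the gene on mouse chromosome 14. All DpnII fragments from chr14:69600000 to chr14:70300000 (mm9) were taken, whatever their values, which gave 1815 of the 303591 DpnII fragments of the chromosome. Contacts were measured by NG Capture-C, in which crosslinked chromatin is cut with DpnII and religated, and fragments joined to a chosen site, the viewpoint, are pulled out with biotinylated oligonucleotides and sequenced. The viewpoint lay on the Slc25a37 start (chr14:69903160, minus strand). ESC at day 0 were compared with ESC-derived definitive endoderm (DE) at day 5 and with erythrocytes, also labelled day 5. There were 3 libraries per cell type. ESC and DE were of strain 129/Sv//EV, and DE was induced with 20 ng/ml Activin A and 20 ng/ml EGF. Erythrocytes were C57BL/6 cells from the spleens of phenylhydrazine-treated mice, taken as a filtered suspension. Strain and cell type therefore cannot be told apart in either comparison with erythrocytes. The study calls such libraries biological replicates, but the labels do not say whether the libraries came from separate cultures or mice, so p-values measure the spread between these libraries. No RNA was measured here, so the cell types could not be checked against marker genes.

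Slc25a37 encodes mitoferrin-1, a carrier of the inner mitochondrial membrane that brings iron into mitochondria for haem synthesis in erythroid cells. Promoters of active genes are known to meet distal enhancers by folding of the intervening chromatin, usually within a domain of preferred contacts. The gene runs from 69859908 to 69903160 on the minus strand, so positions above the start are upstream of it and positions below the start lie over the gene body and then downstream. The nearest upstream gene is D930020E02Rik, whose start lies 9.2 kb away, followed by the lincRNA Gm16677 and by Entpd4, which encodes a nucleotidase, both starting 52.0 kb upstream. Nkx2-6, a homeobox transcription factor gene, starts 113.5 kb to the other side.

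The fragments shown here had the largest erythrocyte gains or the highest erythrocyte level on the upstream side, and none overlaps an annotated exon. Sequences were read from NCBIM37 on the plus strand, whole for fragments of at most 300 bases and over the middle 300 bases otherwise. Capitals mark matches on either strand to AGATAA and to the related TGATAA, forms of the motif of GATA factors, and to CACCC, a motif of KLF factors.
chr14:69922667-69922730: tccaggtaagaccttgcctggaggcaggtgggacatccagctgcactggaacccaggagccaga
chr14:69934338-69934534: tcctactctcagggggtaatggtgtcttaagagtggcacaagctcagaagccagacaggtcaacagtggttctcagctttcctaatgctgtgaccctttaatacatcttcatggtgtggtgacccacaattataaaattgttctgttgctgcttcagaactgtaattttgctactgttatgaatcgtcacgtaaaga
chr14:69934535-69934598: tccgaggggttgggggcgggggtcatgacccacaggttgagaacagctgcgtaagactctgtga
chr14:69937358-69937657: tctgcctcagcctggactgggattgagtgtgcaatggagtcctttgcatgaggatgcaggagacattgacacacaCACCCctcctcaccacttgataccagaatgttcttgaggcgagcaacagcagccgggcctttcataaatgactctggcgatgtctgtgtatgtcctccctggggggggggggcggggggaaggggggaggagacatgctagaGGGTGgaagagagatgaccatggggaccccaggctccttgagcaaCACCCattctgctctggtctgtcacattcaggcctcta
chr14:69940411-69940710: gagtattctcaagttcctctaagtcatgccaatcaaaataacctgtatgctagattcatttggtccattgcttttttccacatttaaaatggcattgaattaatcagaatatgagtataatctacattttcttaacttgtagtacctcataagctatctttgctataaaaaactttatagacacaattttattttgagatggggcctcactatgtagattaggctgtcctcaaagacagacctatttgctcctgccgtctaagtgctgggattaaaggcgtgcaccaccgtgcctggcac
chr14:69943828-69944127: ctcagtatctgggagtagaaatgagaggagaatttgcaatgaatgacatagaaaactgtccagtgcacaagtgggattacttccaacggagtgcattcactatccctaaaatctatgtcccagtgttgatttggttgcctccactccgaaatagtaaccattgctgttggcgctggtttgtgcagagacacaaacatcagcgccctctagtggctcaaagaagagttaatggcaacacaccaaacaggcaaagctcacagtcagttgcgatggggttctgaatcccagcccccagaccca
No AGATAA and no TGATAA was present in these stretches, while chr14:69937358-69937657 held 3 CACCC matches. Other forms of the GATA motif were not searched, so a GATA motif may still be present. Among the middle 300 bases of the 803 fragments of the locus of at least 300 bases, 24.16% held AGATAA or TGATAA, 48.32% held CACCC and 6.102% held 3 or more CACCC. These matches describe letters, and binding was not tested.

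Values are given as interactions per 100000 on chromosome 14, computed from reads per fragment. The libraries held between 1265 and 24066 reads on chromosome 14, of which 866 to 9934 fell in the locus. The erythrocyte libraries were the most uneven, and 1 read was worth 13.81, 40.37 and 79.05 per 100000 in replicates 1, 2 and 3, against 4.155 to 16.26 in ESC and DE. Chromosome 14 held 29.64%, 66.16% and 26.63% of all reads in the 3 erythrocyte libraries, against 52.03% to 57.13% in ESC and 50.43% to 54.17% in DE. Erythrocyte replicate 3 had 29.25% of its chromosome 14 reads within 5 kb of the start, against 11.27% and 9.245% in replicates 1 and 2 and 7.498% to 8.265% in ESC. Other promoters captured in the same libraries showed both traits. There replicate 3 had 30.03% to 43.78% within 5 kb, and replicates 1 and 2 10.92% to 20.93%. The viewpoint's own chromosome held 22.13% to 44.72% in replicates 1 and 3 and 71.14% to 79.4% in replicate 2. Both facts touch every erythrocyte value, and their part in the differences was not tested. The same libraries were captured again with the enhancer pool, where the Slc25a37 columns left the identical 7 fragments around the start (chr14:69902161-69904393) without values. Those columns thus repeat the same viewpoint and are called the second capture here. In the first capture 1603 of the 1815 fragments had at least 1 read over the 9 libraries and 212 had none, among them the 7 captured fragments.

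In erythrocytes the promoter met a stretch from 15 to 45 kb upstream more often than in ESC or DE. This stretch took 12.78%, 17.28% and 12.81% of chromosome 14 interactions in the 3 erythrocyte libraries. In ESC it took 4.746%, 4.385% and 4.829%, and in DE 4.468%, 4.230% and 4.054%. Every erythrocyte library lay above every ESC and DE library. The mean was 14.3% ± 2.59 (SD, n = 3) in erythrocytes, 4.65% ± 0.236 in ESC and 4.25% ± 0.208 in DE, a ratio of 3.07 to ESC and 3.36 to DE (exact two-sided permutation p = 0.1 for each, the smallest that 3 libraries against 3 allow). DE and ESC overlapped (exact permutation p = 0.2). The edges of this stretch were not planned and were chosen with results of these data known. Its ratios and p-values therefore describe the stretch and are no independent test of it. Wilson 95% intervals, which cover counting error only, ran from 11.08% to 14.76% in erythrocyte replicate 3, the shallowest library, and from 4.29% to 5.247% in ESC replicate 1. When the 5 kb to each side of the start was left out of the total, the ratio to ESC was 3.40. In the second capture it was 3.26.

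The same distance on the downstream side differed less. Between 15 and 45 kb downstream, over the Slc25a37 body and its 3′ end, erythrocytes had 7.11% ± 0.977 (SD, n = 3), ESC 5.34% ± 0.635 and DE 3.797% ± 0.234. The ratios were 1.33 to ESC and 1.87 to DE, again with no overlap (exact permutation p = 0.1 each). Between 20 and 50 kb the upstream to downstream ratio was 1.907, 2.281 and 2.3 in the erythrocyte libraries, 0.9084, 0.8981 and 1.206 in ESC and 1.291, 1.184 and 1.345 in DE. Erythrocytes thus had more contact upstream than downstream at this distance in all 3 libraries, and their ratio lay above every ESC and DE library (exact permutation p = 0.1 each). The upstream side here overlaps the stretch from 15 to 45 kb, so this ratio is no independent test of it either. From 50 to 100 kb the ratios of erythrocytes and ESC overlapped, at 1.08, 1.041 and 3.0 in erythrocytes and 1.155, 1.022 and 1.032 in ESC (exact permutation p = 0.5). They lay above DE, with 0.973, 0.9713 and 0.9795 (exact permutation p = 0.1). The erythrocyte ratios there rest on 234 upstream and 206 downstream reads over the 3 libraries, and the 3.0 came from replicate 3, the shallowest. Counting error was not estimated for these ratios.

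**Figure D1:**
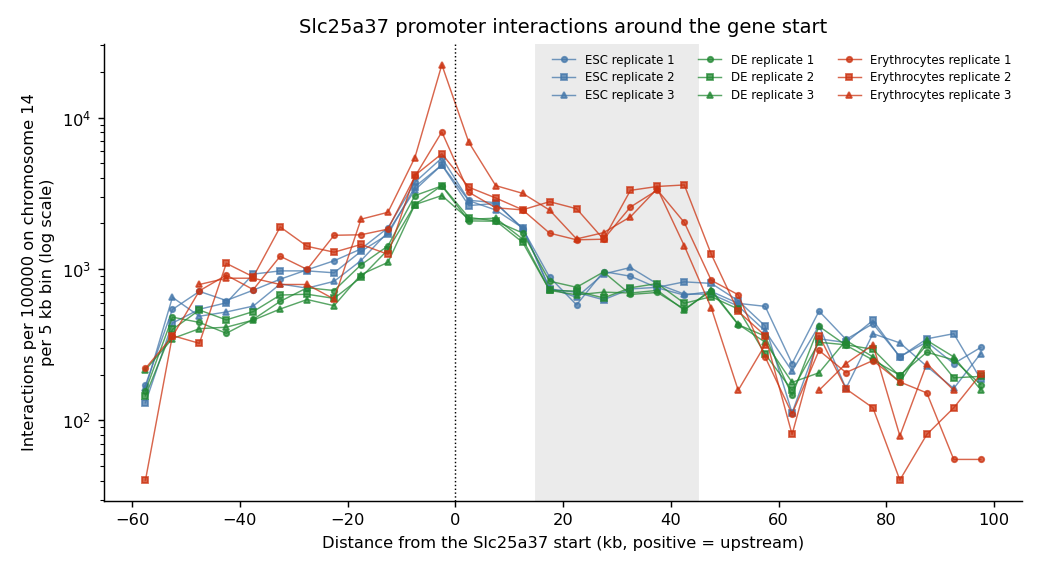
Interactions per 100000 on chromosome 14 (log scale) in 5 kb bins against distance from the Slc25a37 start in kb, positive upstream, with 1 line per library (bins without a read are gaps) and the stretch from 15 to 45 kb upstream shaded. The 3 erythrocyte lines lie above all ESC and DE lines across the shaded stretch and mostly below them beyond 50 kb.

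In bins of 5 kb counted from the start, the gain was largest from 35 to 40 kb upstream (chr14:69938160-69943159). The 3 erythrocyte libraries stood at 3327, 3512 and 3399 per 100000. ESC stood at 751.4, 757.3 and 796.7, and DE at 700.3, 802.0 and 722.6. The groups were far apart and each was narrow, with a log2 fold change on the log2(value + 10) scale of 2.14 ± 0.16 (SE) to ESC and 2.19 ± 0.13 to DE (limma, adjusted p = 0.000492 and 0.000502). This bin stayed past the threshold under all 20 alternatives run for it in both comparisons, with log2 fold changes to ESC from 1.58 to 2.42.

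The neighbouring bins were higher as well. From 30 to 35 kb upstream the erythrocyte libraries stood at 2568, 3310 and 2213 against 738.6 to 1024 in ESC (log2 fold change 1.59 ± 0.23, limma adjusted p = 0.00389). From 40 to 45 kb they stood at 2030, 3593 and 1423 against 672.3 to 822.7 (1.58 ± 0.34, limma adjusted p = 0.0112), so replicate 2 was the highest and replicate 3 the lowest there. Nearer to the gene, the log2 fold change to ESC was 1.52 ± 0.24 at 15 to 20 kb, 1.501 ± 0.27 at 20 to 25 kb and 0.97 ± 0.24 at 25 to 30 kb (limma adjusted p = 0.00389, 0.00450 and 0.0196). In none of these bins did erythrocyte and ESC libraries overlap.

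Further upstream the gain ended. From 45 to 50 kb the erythrocyte libraries stood at 842.2, 1252 and 553.4, on both sides of the 682.9 to 804.0 of ESC (log2 fold change 0.19 ± 0.35, limma adjusted p = 0.655). In 2 kb steps the mean erythrocyte level stayed between 614.6 and 754.8 per 100000 per kb from 34 to 42 kb upstream, against 110.4 to 167.6 in ESC and 121.8 to 151.4 in DE. From 42 to 44 kb the 3 erythrocyte libraries gave 241.6, 524.8 and 39.53 per kb and the test was not passed (limma adjusted p = 0.374 to ESC). Gm16677 ends at 69946056, inside that step, and the Entpd4 start lies beyond it. On the near side, erythrocytes had 356.9 per kb and ESC 435.3 from 10 to 12 kb (limma adjusted p = 0.352), and 660.7 and 310.3 from 12 to 14 kb (limma adjusted p = 0.0171).

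Of the 139 bins of the locus, 7 were higher in erythrocytes than in ESC and 41 lower. Over the 365 bins of chromosome 14 tested, 2.19% were higher and 35.1% lower, against 29.5% lower in the locus. With all chromosomes as the total 1 bin of the locus was higher and 59 lower, and with TMM factors 8 and 20. The 7 higher bins covered 10 to 45 kb upstream without a gap. edgeR on the recovered reads called 9 higher and 57 lower (41.0% of the locus), where 3.29% and 31.0% of the bins tested were called, and 6 of its 9 were shared. Whether lower bins were more or less frequent in the locus than on the chromosome thus turned with the tool. The second capture gave 9 higher and 35 lower, with 3.65% and 31.4% of all bins tested called, and again 6 shared. Where a bin also needed at least 3 reads expected in the shallowest library, 37 bins remained, all in the locus, of which 7 were higher (18.9%), 6 of them shared, and 0 lower (14 had an unadjusted p under 0.05 in limma). The 6 bins from 15 to 45 kb upstream passed in limma, edgeR, the second capture and the fit limited by expected reads. They also passed with TMM factors, but with all chromosomes as the total only 1 of the 6 did. The lower calls leaned on each ESC library, and without ESC replicate 1, 2 or 3 limma called 18, 15 and 20 bins in all rather than 48.

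Against DE, 14 bins were higher and 39 lower. Of 692 bins of chromosome 14 tested, 2.17% were higher and 42.6% lower, against 28.1% lower in the locus. With all chromosomes as the total 2 bins of the locus were higher and 56 lower, and with TMM factors 7 and 43. On simulated counts with the depths of these libraries limma called unchanged features too often in this comparison, so other fits are given beside it. There 53.9% of the limma calls in bins and 49.5% in fragments were false, against 5.56% and 0% in edgeR. edgeR called 15 higher and 48 lower (34.5% of the locus), against 3.32% and 16.0% of all bins tested, and the second capture 16 and 45, against 2.75% and 43.5%. Limited to bins with at least 3 reads expected in the shallowest library, 14 were higher and 1 lower of 34, or 41.2% and 2.94%. All 7 bins from 10 to 45 kb upstream were higher in limma, edgeR, the second capture and the fit limited by expected reads. Their log2 fold changes in limma ran from 0.74 to 2.19. Of the 6 bins from 15 to 45 kb upstream, 5 were higher with TMM factors and 1 with all chromosomes as the total. Without DE replicate 1, 2 or 3 limma called 32, 28 and 30 bins in all rather than 53. Downstream, 4 of the 9 bins from 5 to 50 kb were higher in limma and 6 in edgeR. The largest of these gains lay 40 to 45 kb downstream over the 3′ end of Slc25a37 (chr14:69858160-69863159), at 911.2, 1090 and 869.6 in erythrocytes against 376.3 to 461.2 in DE (log2 fold change 1.18 ± 0.26, limma adjusted p = 0.00963). Against ESC, with 520.3 to 619.6, the same bin did not pass in limma (0.71 ± 0.27, adjusted p = 0.0700) but passed in edgeR (adjusted p = 0.0399).

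**Figure D2:**
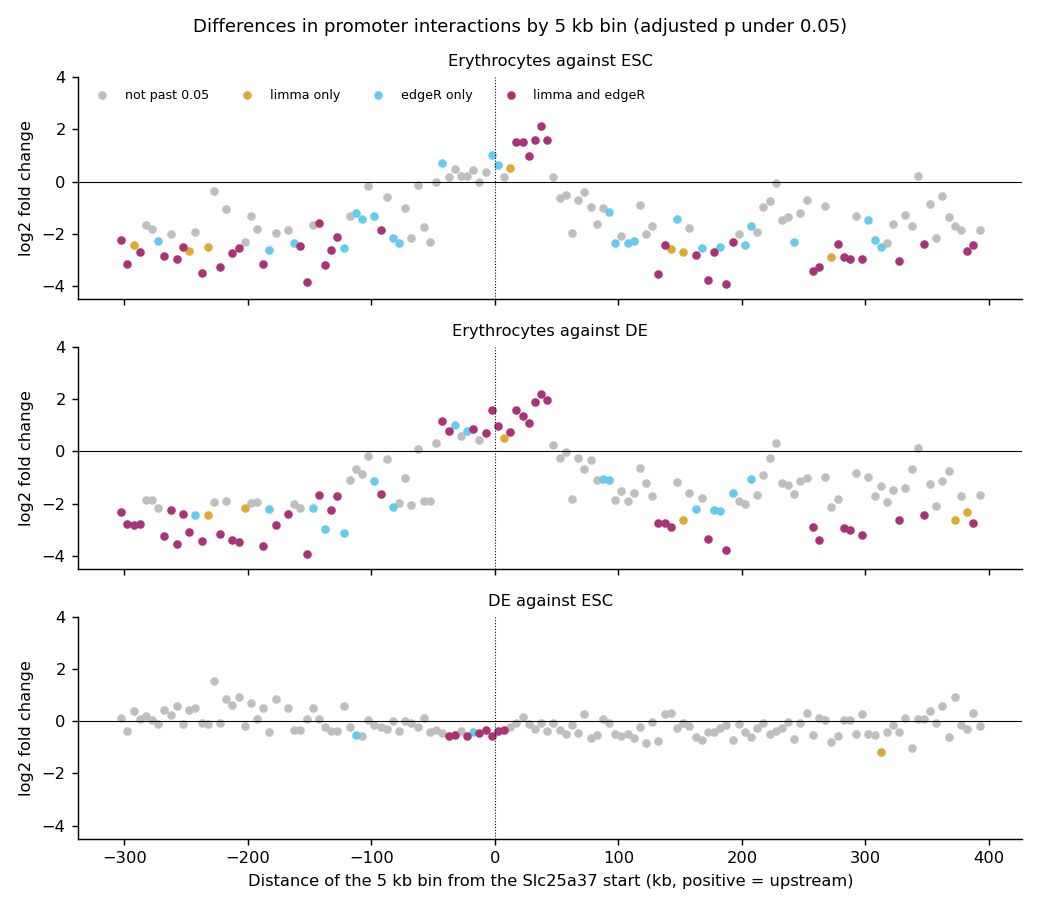
Log2 fold change of each 5 kb bin of the locus against its distance from the Slc25a37 start in kb, positive upstream, in 1 panel per comparison, with colours for bins past an adjusted p of 0.05 in limma, in edgeR or in both. The highest bin lies 35 to 40 kb upstream, at 2.14 against ESC and 2.19 against DE, and the DE against ESC panel has no bin called higher.

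The scale set how large these differences were. The share of reads on chromosome 14 was low in erythrocyte replicates 1 and 3, and values relative to all chromosomes keep that in. On that scale the 6 bins from 15 to 45 kb upstream had log2 fold changes to ESC from 0.43 to 1.58, in the same direction, but 1 of the 6 passed the test, the bin at 35 to 40 kb. Against DE they ran from 0.60 to 1.68, and again 1 passed. Without erythrocyte replicate 3 the 6 bins lay between 0.93 and 2.14 relative to ESC and all passed, and the higher bins of the locus numbered 13 rather than 7.

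At the level of single fragments, all 76 fragments from 15 to 45 kb upstream had reads. Of the 73 with at least 10 reads in erythrocytes and ESC together, 23 were higher in erythrocytes and 0 lower (edgeR 31 and 0), with a median log2 fold change of 1.21. At the same distance downstream 63 of 72 passed the minimum, and 2 were higher (edgeR 5) with a median of -0.0032. The fit held 375 fragments, all within the locus, of which 7.47% were higher and 7.73% lower (edgeR 11.7% and 1.87%). That was 28 and 29 fragments, which became 13 and 55 with all chromosomes as the total and 24 and 42 with TMM factors. Against DE, 31 of 74 upstream fragments were higher and 0 lower (edgeR 37 and 0), where 7.15% of the 657 fragments tested were higher and 24.0% lower (edgeR 9.44% and 0.761%). In the locus limma called 47 fragments higher and 142 lower, and edgeR 62 and 5. The limma counts became 19 and 188 with all chromosomes as the total and 17 and 177 with TMM factors. Fragments can pass a minimum of reads through erythrocytes alone, so these counts describe the stretch and are no test of it.

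Among fragments of 200 bases or more and over 5 kb from the start, the one with the most erythrocyte contact per kb was chr14:69940380-69940741, 37.4 kb upstream, whose middle part is shown above. It stood at 483.2, 363.3 and 1028 per 100000 in erythrocytes, at 79.09, 37.40 and 48.78 in ESC and at 88.84, 54.02 and 84.46 in DE. All erythrocyte libraries were above all others, replicate 3 the most, on 57 erythrocyte reads in all. The log2 fold change was 3.20 ± 0.44 to ESC and 2.77 ± 0.45 to DE (limma adjusted p = 0.00402 and 0.00478), and the second capture gave means of 391.2 in erythrocytes, 66.11 in ESC and 83.46 in DE. Per kb the first capture gave 1726 in erythrocytes, 152.2 in ESC and 209.3 in DE. The next 4 fragments by this measure lay within 10 kb of the start, where ESC and DE were high too, with log2 fold changes to ESC from 0.20 to 0.65, none past the threshold in limma or edgeR.

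Further out, chr14:69943743-69944212 at 40.82 kb stood at 331.4, 645.9 and 395.3 in erythrocytes, at 105.5, 65.45 and 65.04 in ESC and at 41.81, 45.71 and 18.77 in DE. It was higher than in either cell type (log2 fold change 2.37 to ESC and 3.37 to DE, limma adjusted p = 0.00580 and 0.00478), although the second capture did not pass against ESC (adjusted p = 0.0636). The fragment at 34.35 kb (chr14:69937333-69937682), the one with the CACCC matches, stood at 276.1, 161.5 and 158.1 in erythrocytes. It held 26 reads there, 4 in ESC, all in 1 library, and 5 in DE (limma adjusted p = 0.0149 and 0.00478). The 64 bases of chr14:69922667-69922730 at 19.54 kb held 17 erythrocyte reads, 2 ESC reads and 2 DE reads. By pooled reads that is a ratio of 18.9 to ESC, with a counting interval from 4.488 to 168.7.

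On the gene side 1 fragment stood out by the same rule. chr14:69881530-69882149, inside Slc25a37 and outside its exons at 21.32 kb downstream, stood at 165.7, 80.74 and 158.1 in erythrocytes. These rest on 12, 2 and 2 reads, while ESC had 1 read and DE 6 over their libraries. In erythrocyte replicates 2 and 3 the values lay below the level of 3 reads, 121.1 and 237.2. The ratio to ESC by pooled reads was 35.6 with a counting interval from 5.528 to 1492, and the difference passed in limma (adjusted p = 0.0263). In the second capture the erythrocyte libraries stood at 157.7, 0 and 176.7. The means there were 111.5 in erythrocytes, 4.321 in ESC and 8.858 in DE, and the test against ESC was not passed (limma adjusted p = 0.223).

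A pair of neighbouring fragments at 31.28 and 31.41 kb upstream (chr14:69934338-69934534 and chr14:69934535-69934598, both shown above) had no read in any ESC or DE library. In erythrocytes the first held 11, 10 and 3 reads and the second 2, 9 and 1. By pooled reads, against a floor of 3 reads over the ESC group, the first was at least 17.8-fold higher and the second at least 8.90-fold higher, and against the same floor in DE at least 39.2-fold and 19.6-fold. Without erythrocyte replicate 2 the bound of the first to ESC was 13.4-fold, while the second then held 3 reads, no more than the floor. In the second capture ESC and DE again had 0 reads there, and the erythrocyte libraries had 6, 7 and 0 reads in the first fragment and 2, 5 and 0 in the second. The first did not pass there (limma adjusted p = 0.136 to ESC and 0.11 to DE), and the second was under the minimum of 10 reads. Neighbouring fragments within 1.5 kb of the first held 417 ESC and DE reads over both captures, so the region itself was reached in those libraries. Across the locus 3 fragments had no ESC or DE read in either capture and at least 10 in erythrocytes, this pair and chr14:69907220-69907550 at 4.2 kb upstream, with 106 erythrocyte reads over both captures. Erythrocytes were C57BL/6 and the others 129/Sv//EV, so a difference of strain and a difference of cell type cannot be told apart at these 3 fragments.

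Beyond 50 kb the order of the cell types turned over on both sides. Upstream from 100 to 200 kb, erythrocytes had 13.12, 11.3 and 3.953 interactions per 100000 per kb, ESC 38.1, 39.08 and 40.81, and DE 29.95, 32.37 and 27.78. All erythrocyte libraries were lower than all others, with a ratio of 0.2405 to ESC and 0.3149 to DE (exact permutation p = 0.1 each). From 50 to 100 kb upstream the ratio to ESC was 0.5722, and from 200 to 300 kb 0.4382. Downstream it was 0.4734 from 50 to 100 kb, 0.3258 from 100 to 200 kb and 0.1558 from 200 to 300 kb. The last of these rests on 33 erythrocyte reads against 393 in ESC. Replicate 3 was the lowest erythrocyte library in each of these classes.

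**Figure D3:**
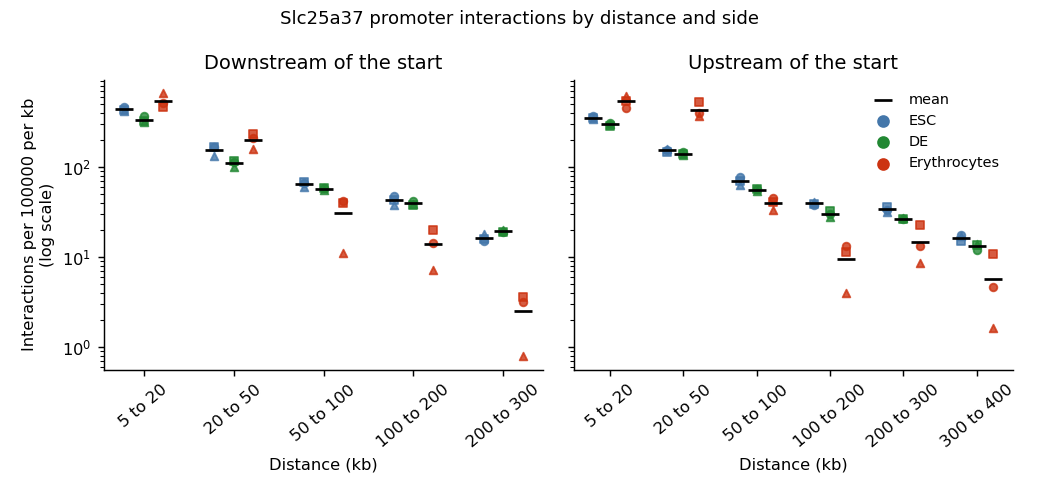
Interactions per 100000 per kb (log scale) by distance class on each side of the Slc25a37 start, with 1 symbol per library, coloured by cell type, and bars for means. Erythrocyte libraries lie above the others from 20 to 50 kb upstream (mean 428.4 against 153.2 in ESC and 139.8 in DE) and below them in every class beyond 50 kb.

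The lowest far bins rest on few reads. The 5 bins lowest in erythrocytes relative to ESC lay 130 to 190 kb upstream and 150 to 240 kb downstream, with 0 to 4 erythrocyte reads each against 25 to 67 in ESC. The bin 235 to 240 kb downstream had no erythrocyte read, which is at least 3.75-fold lower than in ESC by pooled reads, against the floor of 3 reads over the erythrocyte group. Relative to DE the 5 lowest bins had 1 to 4 erythrocyte reads against 71 to 146. Of the 5 lowest single fragments relative to ESC 4 had no erythrocyte read, with bounds from 2.398-fold to 2.698-fold, and relative to DE all 5 had none, with bounds from 1.7-fold to 2.176-fold. In the second capture erythrocytes had the higher mean at chr14:69811621-69811708 (45.96 against 4.45 in ESC). They also did at chr14:69810476-69811620 (73.68 against 65.68 in DE), and had the lower mean at the rest. Of all 29 fragments lower than ESC, 9 were tested there and 1 was called. Of the 142 lower than DE, 85 were tested and 29 called, where 2.75% and 17.6% of fragments tested were lower. In the first capture edgeR called 6 of the fragments that limma called lower than ESC and 5 of those lower than DE.

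Neighbouring gene starts were read over the fragments within 1 kb of each of 11 other protein-coding starts of the locus, tested together with the bins. Of the 11, 0 were higher in erythrocytes than in ESC or DE in limma or edgeR, and Stc1 and Rps2-ps5 were lower in limma in both comparisons. These 2 of 11 compare with 35.1% and 42.6% of all bins lower in the same fits. edgeR called 1 start lower than in ESC and 3 lower than in DE, where 31.0% and 16.0% of all bins were lower. D930020E02Rik, which lies between the Slc25a37 start and the gained stretch, had 1174, 888.2 and 632.4 in erythrocytes, 1131 to 1236 in ESC and 856.0 to 1024 in DE. The Entpd4 start, beyond the edge of the stretch, had 331.4, 201.9 and 79.05 in erythrocytes, 118.6 to 227.6 in ESC and 125.4 to 174.5 in DE. At both starts the erythrocyte libraries overlapped the others.

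Rps2-ps5, annotated as protein coding although named as a pseudogene of the ribosomal protein gene Rps2, may share reads with near-identical copies. It lies 126.2 kb downstream and had 13.81, 0 and 0 in erythrocytes, 303.2, 102.8 and 178.9 in ESC and 88.84, 178.7 and 178.3 in DE (limma adjusted p = 0.00560 to ESC and 0.00342 to DE). That was 1 erythrocyte read in all, and in the second capture erythrocytes had 26.28, 166.3 and 0, which did not pass (limma adjusted p = 0.139 and 0.182). Stc1, which encodes the secreted glycoprotein stanniocalcin-1, lies 255.9 kb downstream and also had 1 erythrocyte read, against 11 in ESC and 40 in DE. Its limma adjusted p was 0.0423 to ESC and 0.00557 to DE, but the counting interval of ESC over erythrocytes, from 0.7188 to 212.9, includes equality, and edgeR did not pass against ESC (adjusted p = 0.160). Tnfrsf10b, a death receptor gene 264.1 kb upstream with 2 erythrocyte reads, was lower than in DE in edgeR alone (adjusted p = 0.0343, limma 0.154). Nkx2-6 had 82.84, 121.1 and 79.05 in erythrocytes against 171.4, 130.9 and 113.8 in ESC, which overlap, and did not pass in limma or edgeR. The remaining starts, Loxl2, R3hcc1, Chmp7, Rhobtb2 and Pebp4, held 4 to 12 erythrocyte reads each and did not pass in either. In the second capture the 3 starts called lower were Stc1, Loxl2 and Rhobtb2, in both comparisons. Their limma adjusted p ran from 0.0148 to 0.0263 to ESC and from 0.0115 to 0.0486 to DE. There 31.4% and 43.5% of all bins tested were lower.

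**Figure D4:**
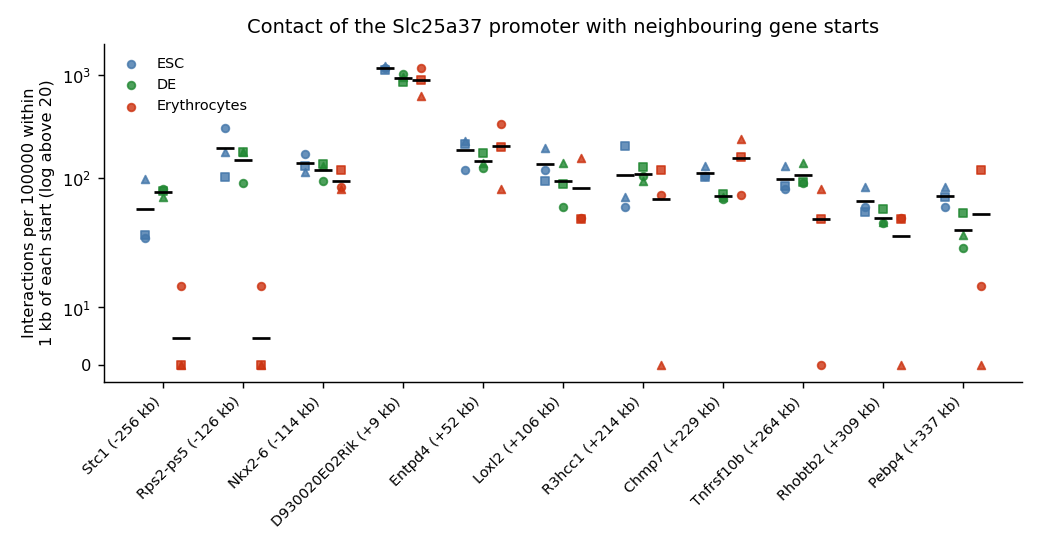
Interactions per 100000 of the Slc25a37 promoter within 1 kb of each of 11 neighbouring gene starts, ordered by position with the distance from the Slc25a37 start in kb, on an axis that is logarithmic above 20 and linear below. Symbols are libraries and bars are means of 3, and erythrocytes sit at 0 to 13.81 at Stc1 and Rps2-ps5 but overlap ESC at Entpd4.

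DE differed from ESC by less, and in the opposite sense near the start. Within 50 kb of the start DE had 23.52%, 22.62% and 21.43% of chromosome 14 interactions and ESC 30.32%, 28.71% and 27.72%, with no overlap (mean 22.5% ± 1.05 and 28.9% ± 1.31, SD, n = 3, exact permutation p = 0.1). Erythrocytes had 43.74%, 46.95% and 64.03%. Of the bins of the locus, 0 were higher in DE in limma and 9 lower (38 had an unadjusted p under 0.05), where 0.629% and 1.38% of 795 bins of chromosome 14 were higher and lower. edgeR called 0 and 10 (31 had an unadjusted p under 0.05), with 0% and 1.51% of all bins tested called. Of the 9 bins, 8 lay between 40 kb downstream and 10 kb upstream, with log2 fold changes from -0.58 to -0.32, and the other lay 310 to 315 kb upstream, where the libraries overlapped.

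Among the called bins over 5 kb away whose libraries did not overlap, the largest loss lay 35 to 40 kb downstream, at 465.1, 523.6 and 459.8 in DE against 725.0, 925.6 and 569.1 in ESC (log2 fold change -0.58 ± 0.17, limma adjusted p = 0.0401). The next lay 20 to 25 kb downstream, at 721.2, 639.9 and 572.4 against 1134, 944.3 and 829.3 (-0.58 ± 0.15, limma adjusted p = 0.0129). These lie over the Slc25a37 body. The calls were not steady, and the bin at 20 to 25 kb lost its call in 11 of 20 alternatives and the bin at 35 to 40 kb in 12. Over the locus limma called 5 and 3 bins without ESC replicate 1 or 2, and 5, 3 and 1 without DE replicate 1, 2 or 3, rather than 9. In the stretch from 15 to 45 kb upstream 0 of 6 bins were called in limma or edgeR, with log2 fold changes from -0.37 to 0.15. Of 831 fragments 3 were lower in DE in limma and 3 in edgeR, each 0.330% of the 909 tested. The one over 5 kb away was chr14:69894553-69894626 at 8.57 kb downstream, with 151.6, 87.26 and 84.46 in DE and 290.0, 243.1 and 308.9 in ESC (log2 fold change -1.34 ± 0.28, limma adjusted p = 0.000931).

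At other promoters captured in the same libraries, contact at middle distance was compared in the same way. From 20 to 50 kb, counting both sides, the Slc25a37 promoter had 18.8% ± 3.55 (SD, n = 3) of its chromosome's interactions in erythrocytes and 9.24% ± 0.469 in ESC. The alpha-globin promoters (Hba) had 13.85% ± 2.92 and 9.96% ± 0.343, and the beta-globin promoters (Hbb) 16.3% ± 5.56 and 5.505% ± 0.386. At these 3 promoters erythrocyte libraries lay above ESC libraries. At Eomes, Foxa2 and Lhx1, developmental transcription factor genes, erythrocytes had means of 4.232% to 4.629% against 5.51% to 7.047% in ESC, with overlap at Lhx1. The log2 ratio of erythrocytes to ESC at Slc25a37 exceeded that at Hba by 0.55, at Lhx1 by 1.33, at Foxa2 by 1.48 and at Eomes by 1.61, and was below that at Hbb, with a difference of -0.51. Each difference came with no overlap of the within-library ratios (exact permutation p = 0.1 in each of the 5 tests, the smallest possible, and 0.1 after Benjamini-Hochberg adjustment). The class from 20 to 50 kb was not planned and overlaps the gained stretch, so these values are no independent test of it. From 100 to 300 kb all 6 promoters were lower in erythrocytes, with ratios to ESC of 0.3082 at Slc25a37, 0.2148 at Hba, 0.2819 at Hbb and 0.4452 to 0.4713 at the others. There the libraries' ratios of Slc25a37 overlapped between erythrocytes and ESC relative to both globin promoters. Within 50 kb of the start, the distance planned for the globin promoters, erythrocyte means were 51.57% at Slc25a37, 50.96% at Hba and 44.85% at Hbb. ESC means there were 28.92%, 37.37% and 20.47%, without overlap of libraries. At Eomes, Foxa2 and Lhx1 erythrocytes had 31.79%, 37.09% and 38.65% within 50 kb and ESC 29.4%, 30.91% and 36.15%, with overlap at each. The viewpoints share libraries and are not independent of each other.

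**Figure D5:**
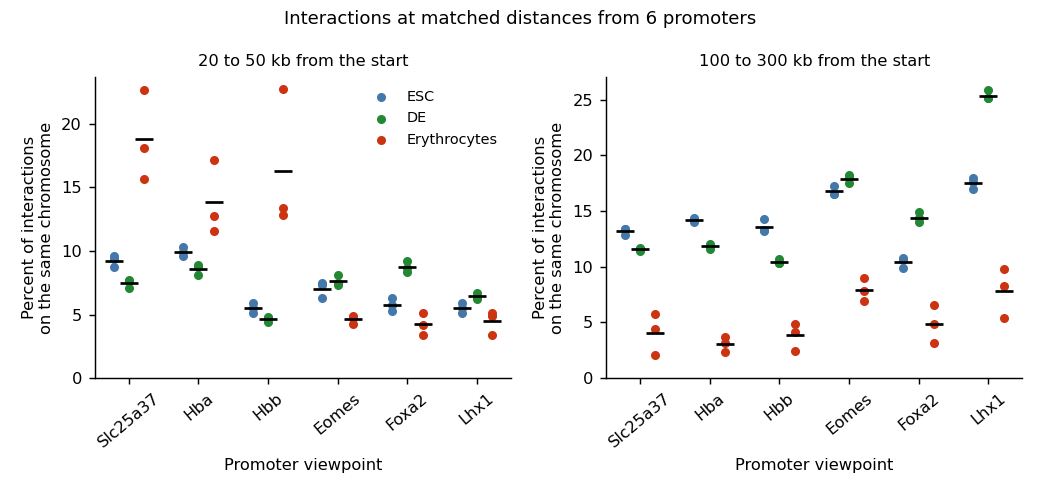
Percent of the interactions on the viewpoint's own chromosome at 20 to 50 kb (left) and 100 to 300 kb (right) from 6 promoters, with 1 point per library and bars for means of 3. At 20 to 50 kb erythrocytes lie above ESC at Slc25a37, Hba and Hbb, and at 100 to 300 kb they lie below ESC at all 6.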

How the data were processed

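NG Capture-C libraries of ESC, DE and erythrocytes (3 each) were read from the promoter capture, and the enhancer capture of the same libraries was used as a repeat. The authors trimmed reads with Trim Galore, aligned them to mm9 with Bowtie (versions not given in the sources used here), counted interactions per DpnII fragment and deposited a signal scaled to 100000 interactions per column. Whole reads were recovered from the deposited signal, with 100% of values within 0.05 of a whole read, and rescaled to 100000 interactions on chromosome 14. Interactions are ligation products without molecular identifiers, so intervals and floors cover counting error only. Of the columns, 63 were used and 45 of other viewpoints of the enhancer capture were not used here.

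Bins of 5 kb with the gene starts, and fragments in a fit of their own, were tested with limma 3.58.1 (R 4.3.3, trend) on log2(value + 10), with at least 10 reads over the libraries compared, Benjamini-Hochberg adjustment over all features of chromosome 14 and a threshold of 0.05. Each comparison was fitted on its own 6 libraries. edgeR 4.0.16 (quasi-likelihood) and DESeq2 1.42.0 on recovered reads were alternatives. For shares, an exact permutation test over libraries (two-sided, scipy 1.17.1) was run, and Wilson 95% intervals were added. The fits were tested on simulated data. Annotation and sequence came from GENCODE and NCBIM37.

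Named bins and fragments were up to 5 per direction by log2 fold change among those past the threshold, without overlap between libraries and over 5 kb from the start, plus the 5 fragments of 200 bases or more with the highest erythrocyte level per kb. The pair of fragments without ESC or DE reads and the single fragment at 4.2 kb were also described after their values were seen. The members, lists and tests were chosen with earlier results of these data known. Another gene start of the locus and a fragment near it are not reported here. Contact with a separate enhancer viewpoint was not analysed here, since the enhancer capture's Slc25a37 columns hold the promoter viewpoint.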

Additional observations from a re-analysis of the deposited data

How the results depend on the processing

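Both the libraries and the settings limit these results, and the cause of each change listed here was not tested. With the total of all chromosomes in place of chromosome 14, the difference in the locus share of erythrocytes over ESC turned from 9.274 to -3.59 percentage points, that over DE went from 18.69 to 2.375 and that of DE over ESC from -9.414 to -5.965, while within 50 kb of the start the differences were 4.512 (from 22.66), 8.455 (from 29.05) and -3.943 (from -6.392). With the total within 2 Mb of the start, the locus difference of DE over ESC was -6.278 and the 50 kb difference of erythrocytes over ESC 34.16, and without 10 kb to each side of the start the 50 kb difference of DE over ESC was -3.853. Leaving out 1 replicate gave locus differences of 4.905 to 12.69, 14.32 to 22.1 and -10.44 to -8.372, and 50 kb differences of 16.43 to 26.57, 22.82 to 32.97 and -6.99 to -5.692.

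Of the 48 bins that differed between erythrocytes and ESC, TMM factors gave 28, no minimum 11, all 3 cell types in the fit 79, DESeq2 26, at least 3 reads expected in the shallowest library (chosen after seeing the data, as were the second capture and both captures summed) 7, bins of 2 kb 88, bins of 10 kb 29 and leaving out 1 replicate 15 to 61, with 18, 15 and 20 without ESC replicates 1, 2 and 3. Of the 53 against DE, no minimum gave 12, the expected reads 15, bins of 2 kb 138, bins of 10 kb 31 and leaving out 1 replicate 28 to 76, with 32, 28 and 30 without DE replicates 1, 2 and 3. Of the 9 between DE and ESC, a pseudocount of 2 gave 1, TMM 1, all 3 cell types 0, no trend 0, DESeq2 1, the second capture 3, bins of 2 kb 2 and leaving out 1 replicate 1 to 11.

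Of the 57 fragments that differed between erythrocytes and ESC, no minimum gave 13, all 3 cell types 92, DESeq2 4, the expected reads 13, the second capture 29, both captures summed 166 and leaving out 1 replicate 26 to 88, with 36 and 26 without ESC replicates 1 and 2 and 88 without erythrocyte replicate 1. Of the 189 against DE, no minimum gave 20, edgeR 67, DESeq2 21, the expected reads 18, both captures summed 409 and leaving out 1 replicate 57 to 280, with 81, 57 and 114 without DE replicates 1, 2 and 3. Of the 3 between DE and ESC, a pseudocount of 50 gave 5, TMM 0, no minimum 11, all 3 cell types 0, no trend 0, DESeq2 0, the expected reads 8, both captures 10 and leaving out 1 replicate 0 to 9. Replicate numbers did not pair the libraries (correlations of same-numbered deviations from -0.0938 to 0.0677 over 163 bins), and a fit with the replicate block gave 5 fragments there. Contact with an enhancer viewpoint was not run.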

Other observations

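From the 5 other promoters, all on other chromosomes, the Slc25a37 locus drew 0 to 32 reads per library. From Hbb it held 12, 1 and 4 reads in erythrocytes, 0 in each ESC library and 4, 1 and 5 in DE, with 5603, 8005 and 5349 reads of that viewpoint in the ESC libraries. Per 100000 interactions of the viewpoint the erythrocyte libraries stood at 46.6, 14.86 and 40.92 and the DE libraries at 17.79, 3.785 and 33.59, which overlap. From Hba the levels were 18.52, 18.76 and 26.73 in erythrocytes, 12.5, 13.07 and 17.08 in ESC and 15.5, 16.65 and 7.982 in DE, so erythrocytes did not overlap ESC (exact permutation p = 0.1, the smallest that 3 libraries against 3 allow). At Eomes, Foxa2 and Lhx1 erythrocytes and ESC overlapped. All these levels are relative to all interactions of the viewpoint. Of these, Hba had 27.87%, 71.74% and 26.51% on its own chromosome in erythrocytes, and 72.97%, 70.48% and 65.29% in ESC. Hbb had 26.5%, 71.14% and 22.13% in erythrocytes, and 72.1%, 71.48% and 63.92% in ESC. Erythrocyte replicates 1 and 3 thus held more interactions on other chromosomes, and the part of this in the differences was not tested.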
